A study of Mus musculus with 30 samples.

Results

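Benzyl butyl phthalate (BBP), a plasticiser, was set directly against rosiglitazone (ROSI), a drug of the thiazolidinedione class that binds and activates PPAR gamma, in mouse 3T3-L1 cells. The question was whether the phthalate gave a weaker copy of the agonist's expression pattern or one that differed in kind. The contrast used the 3 arrays titled BBP and the 3 titled ROSI, 6 of the 30 arrays of the series, and all 14763 genes with a symbol on them. The labels give the 2 names only as abbreviations, read here in their usual sense, and give the concentration of neither compound.

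3T3-L1 is a clonal line of mouse embryonic fibroblasts that can turn into fat cells in culture. BBP cells and ROSI cells had each been given their compound for 10 days, starting 2 days after the cells became confluent, with 10% foetal bovine serum in the medium. The third group used here, DMSO, was the solvent control at 0.1% and had 3 arrays. Each sample was labelled with Cy3 and hybridised against 1 Cy5 pool of control and exposed samples, so a level below is the log2 ratio of a sample to that pool. Such a ratio compares samples for 1 gene and does not say whether a gene was present or absent. The series record calls the 3 arrays of a group biological replicates, the labels do not say whether they came from separate cultures, and the p-values measure the spread between these samples only.

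PPAR gamma is the nuclear receptor that drives fat cell formation. Bound with RXR, it switches on genes for fatty acid uptake, lipid droplets, adipokines and the refilling of glycerol, and it works in a loop with C/EBP alpha. Its agonists of the thiazolidinedione class are also known to raise genes of mitochondria and of brown fat in adipocytes, while fibroblast genes for matrix and contractile filaments decline as preadipocytes convert. In bulk RNA, fewer converted cells and less RNA per cell cannot be told apart.

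BBP differed from ROSI in 3730 of the 14763 genes, 25.3% of them (limma, Benjamini-Hochberg adjusted p under 0.05 over all 19231 entries tested). The calls were split evenly in number and unevenly in size. BBP was lower in 1964 genes (13.3%) and higher in 1766 (12%), but of the differences of at least 2-fold 128 were lower (0.867%) and 9 higher (0.061%). The median difference over all genes was 0.00316 on the log2 scale. The 3 BBP arrays did not overlap the 3 ROSI arrays in 39.8% of genes, nor the DMSO arrays in 28.5%, and ROSI did not overlap DMSO in 43.4%.

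Against the solvent, 1460 genes were called in BBP (9.89%), of which 1093 were higher (7.4%) and 367 lower (2.49%), so that 74.9% of calls were upward. After quantile normalization the upward share was 54%, with 511 higher and 436 lower. In ROSI 4941 genes were called against DMSO (33.5%), 2648 higher (17.9%) and 2293 lower (15.5%). At least 2-fold from DMSO were 57 genes higher (0.386%) and 1 lower (0.00677%) in BBP, and 372 higher (2.52%) and 17 lower (0.115%) in ROSI. Both counts use the same DMSO arrays.

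**Figure D1:**
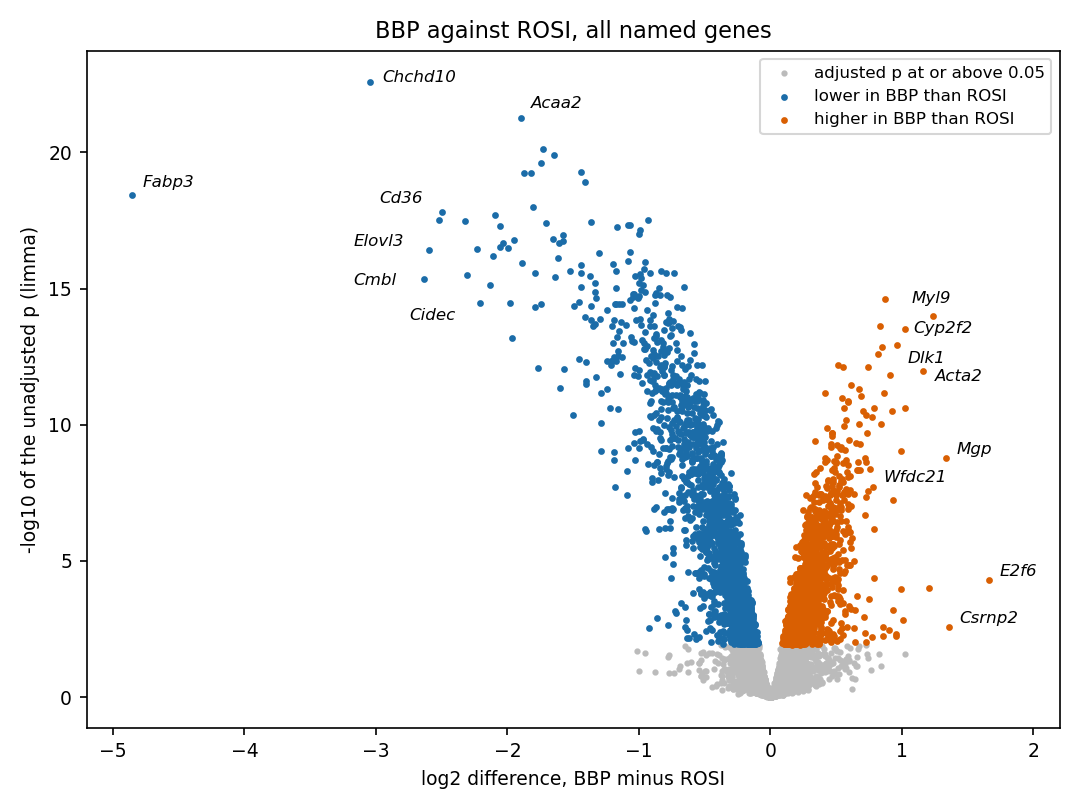
Each point is 1 of the 14763 named genes, with the log2 difference BBP minus ROSI on the horizontal axis and -log10 of the unadjusted limma p on the vertical axis, blue where called lower in BBP, orange where called higher and grey where not called. The blue side reaches -4.85 at Fabp3, and the orange side ends at 1.66 at E2f6, a gene whose 3 BBP arrays spread widely.

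Fabp3 lay furthest below ROSI. It encodes the fatty acid binding protein of heart and muscle and stood at -2.41, -2.64 and -2.60 in the BBP arrays, at 2.13, 2.29 and 2.49 in the ROSI arrays and at -3.11, -3.81 and -2.76 in the DMSO arrays. The BBP arrays lay above the DMSO arrays by 0.68 on average and far below ROSI, and no groups overlapped. The call against DMSO (adjusted p = 0.0167, limma) changed with the setting: the difference was -0.62 after quantile normalization and 0.38 without DMSO replicate 2, and the call was lost without DMSO replicate 2, without BBP replicate 1 and with the 3 groups fitted alone (adjusted p up to 0.196, limma). BBP was 28.9-fold lower than ROSI (log2 difference -4.85 ± 0.18 SE, adjusted p = 5.47e-16, limma).

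Cd36, the fatty acid translocase at the cell surface, showed another position. Its levels were -0.73, -0.80 and -0.72 in BBP, 1.72, 1.71 and 1.81 in ROSI, and -2.83, -3.05 and -2.72 in DMSO. In the deposited values BBP lay about midway, 2.50 log2 units below ROSI (SE 0.10, adjusted p = 1.79e-15, limma) and 2.12 above DMSO. After quantile normalization Cd36 was 0.72 above DMSO, still a call, while its difference from ROSI stayed between -2.56 and -2.47 over all alternatives. Fabp4, the main fatty acid binding protein of adipocytes, was likewise between the groups, at -0.99 ± 0.02 in BBP, 0.98 ± 0.04 in ROSI and -3.60 ± 0.37 in DMSO (SD, n = 3 each). Fabp4 in BBP was 2.62 above DMSO, and 1.39 after quantile normalization.

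Of the 28 measured genes on a list of PPAR gamma targets, 27 were lower in BBP than in ROSI and 0 higher, with a median of -1.23. Slc27a1, a fatty acid transport protein, was the 1 not called, at 0.05. Among the target genes of the lipid droplet, Cidec differed by -2.21 ± 0.12 (SE), Plin4 by -1.75 ± 0.06 and Plin1 by -0.998 ± 0.09. Lpl, lipoprotein lipase, differed by -0.72 ± 0.06. The DMSO means of these genes were -0.18 for Slc27a1, -3.12 for Cidec, -1.40 for Plin4, -2.27 for Plin1 and -1.12 for Lpl. Pck1, the cytosolic enzyme that opens glycerol synthesis from pyruvate, stood at -0.81, -0.66 and -0.67 in BBP, 1.53, 1.66 and 1.65 in ROSI, and -2.86, -2.89 and -2.59 in DMSO. Its groups did not overlap, and BBP was 5.01-fold lower than ROSI (adjusted p = 3.10e-15, limma). Against DMSO 20 of the 28 targets were higher in BBP and 0 lower, and 27 were higher in ROSI and 0 lower. After quantile normalization 14 were higher and 3 lower in BBP.

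**Figure D2:**
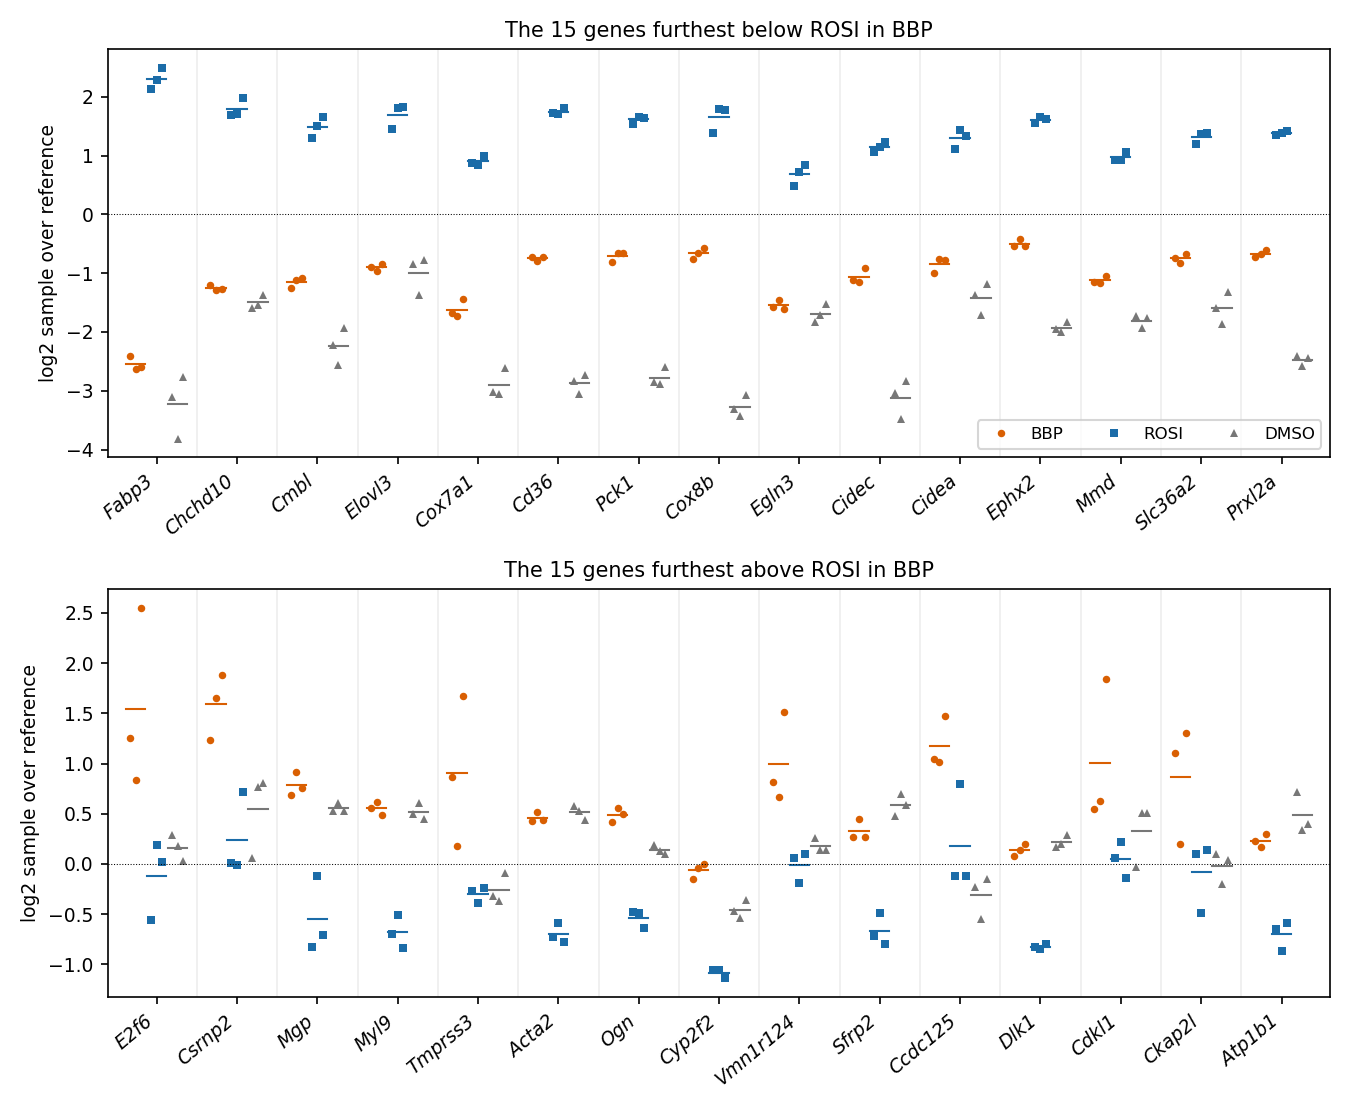
Points give the log2 ratio to the pool on each of 3 arrays of BBP (circles), ROSI (squares) and DMSO (triangles), with bars at group means, for the 15 genes furthest below ROSI in BBP (top) and the 15 furthest above (bottom). In the top panel BBP, in the values as deposited, lies between ROSI and DMSO at a depth that changes by gene, near DMSO for Elovl3 and Egln3 and near the middle for Cd36 and Cox8b.

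Pparg, the gene of the receptor itself, stood at -0.56, -0.51 and -0.40 in BBP, at -0.29, -0.19 and -0.13 in ROSI and at -1.30, -1.51 and -1.24 in DMSO. BBP was lower than ROSI by 0.29 log2 units, with no overlap between the arrays (SE 0.06, 95% interval -0.42 to -0.16, adjusted p = 0.00127, limma). Cebpa, the partner factor of the adipogenic loop, was lower by 0.57 (SE 0.09, adjusted p = 2.00e-05), at 0.02 in BBP, 0.59 in ROSI and -0.92 in DMSO. Ppargc1a, a coactivator tied to mitochondrial genes, was at -0.70, -0.55 and -0.49 in BBP, 0.48, 0.32 and 0.45 in ROSI, and -0.59, -0.81 and -0.59 in DMSO. Its BBP arrays overlapped DMSO and lay 1.00 below ROSI (SE 0.10). Esrra, a nuclear receptor that works with it, differed from ROSI by -1.18, and Ppara, the receptor of fatty acid oxidation, by -1.29, with DMSO means of -0.73 for Esrra and -0.54 for Ppara. The 2 probes averaged for Ppara stood apart, at -2.10 and -0.48 against ROSI. Over 28 adipogenic regulators, 11 were lower and 2 higher in BBP than in ROSI. The higher ones were Cebpd, a C/EBP factor of early adipogenesis, and Id4, an inhibitor of helix-loop-helix factors, with DMSO means of 0.45 for Cebpd and 0.51 for Id4.

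Some genes that were higher than DMSO in both groups were not called between BBP and ROSI. Of those given here, Apoc1, Thrsp and Acp5 were named for lying among the closest to ROSI in BBP. Apoc1, an apolipoprotein, stood at -0.54, -0.55 and -0.34 in BBP, at -0.57, -0.46 and -0.41 in ROSI and at -2.26, -2.51 and -2.01 in DMSO. Its BBP and ROSI arrays interleaved, with a difference of 0.00 and a 95% interval of -0.24 to 0.24. Thrsp, a nuclear protein of lipogenesis, differed by 0.20 (interval -0.02 to 0.41), at -0.08 in BBP, -0.28 in ROSI and -2.41 in DMSO on average. After quantile normalization Thrsp was called higher in BBP than in ROSI. The interval of Fasn, fatty acid synthase, was -0.30 to 0.06, and that of Acp5, an acid phosphatase, -0.24 to 0.02. The BBP arrays of Acp5 all lay below its ROSI arrays. A missed call does not show equal levels. The DMSO means were -0.90 for Fasn and -1.37 for Acp5. Scd1, the desaturase that makes oleate, was lower by 0.50 in BBP (SE 0.09), with levels of -0.64, -0.54 and -0.43 in BBP, -0.15, 0.05 and -0.01 in ROSI, and -2.97, -3.31 and -2.90 in DMSO. Cryzl2, a quinone oxidoreductase relative shown beside these genes, had DMSO replicate 1 at 3.46, against 0.19 and -0.13 on the other DMSO arrays.

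Retn, which encodes the adipokine resistin, was the 1 adipocyte marker called higher in BBP. Its levels were -0.74, -0.68 and -0.75 in BBP, -1.07, -1.02 and -0.96 in ROSI, and -2.19, -2.22 and -1.92 in DMSO. The 3 groups were apart, and BBP exceeded ROSI by 0.29 (SE 0.08, adjusted p = 0.0109, limma), or by 0.62 after quantile normalization. Of the 29 measured adipocyte markers, 21 were lower in BBP than in ROSI, with a median of -0.91. Adipoq, the adiponectin gene, was among them, at -0.45, -0.49 and -0.14 in BBP, 0.82, 0.88 and 0.96 in ROSI, and -2.69, -2.78 and -2.52 in DMSO. Slc2a4, the insulin-responsive glucose transporter, differed by -1.19, and Lipe, hormone-sensitive lipase, by -0.74, with DMSO means of -2.72 for Slc2a4 and -1.22 for Lipe. Against DMSO, 23 of the 29 were higher in BBP and 25 in ROSI, with 0 lower in either. After quantile normalization 18 were higher and 1 lower in BBP.

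**Figure D3:**
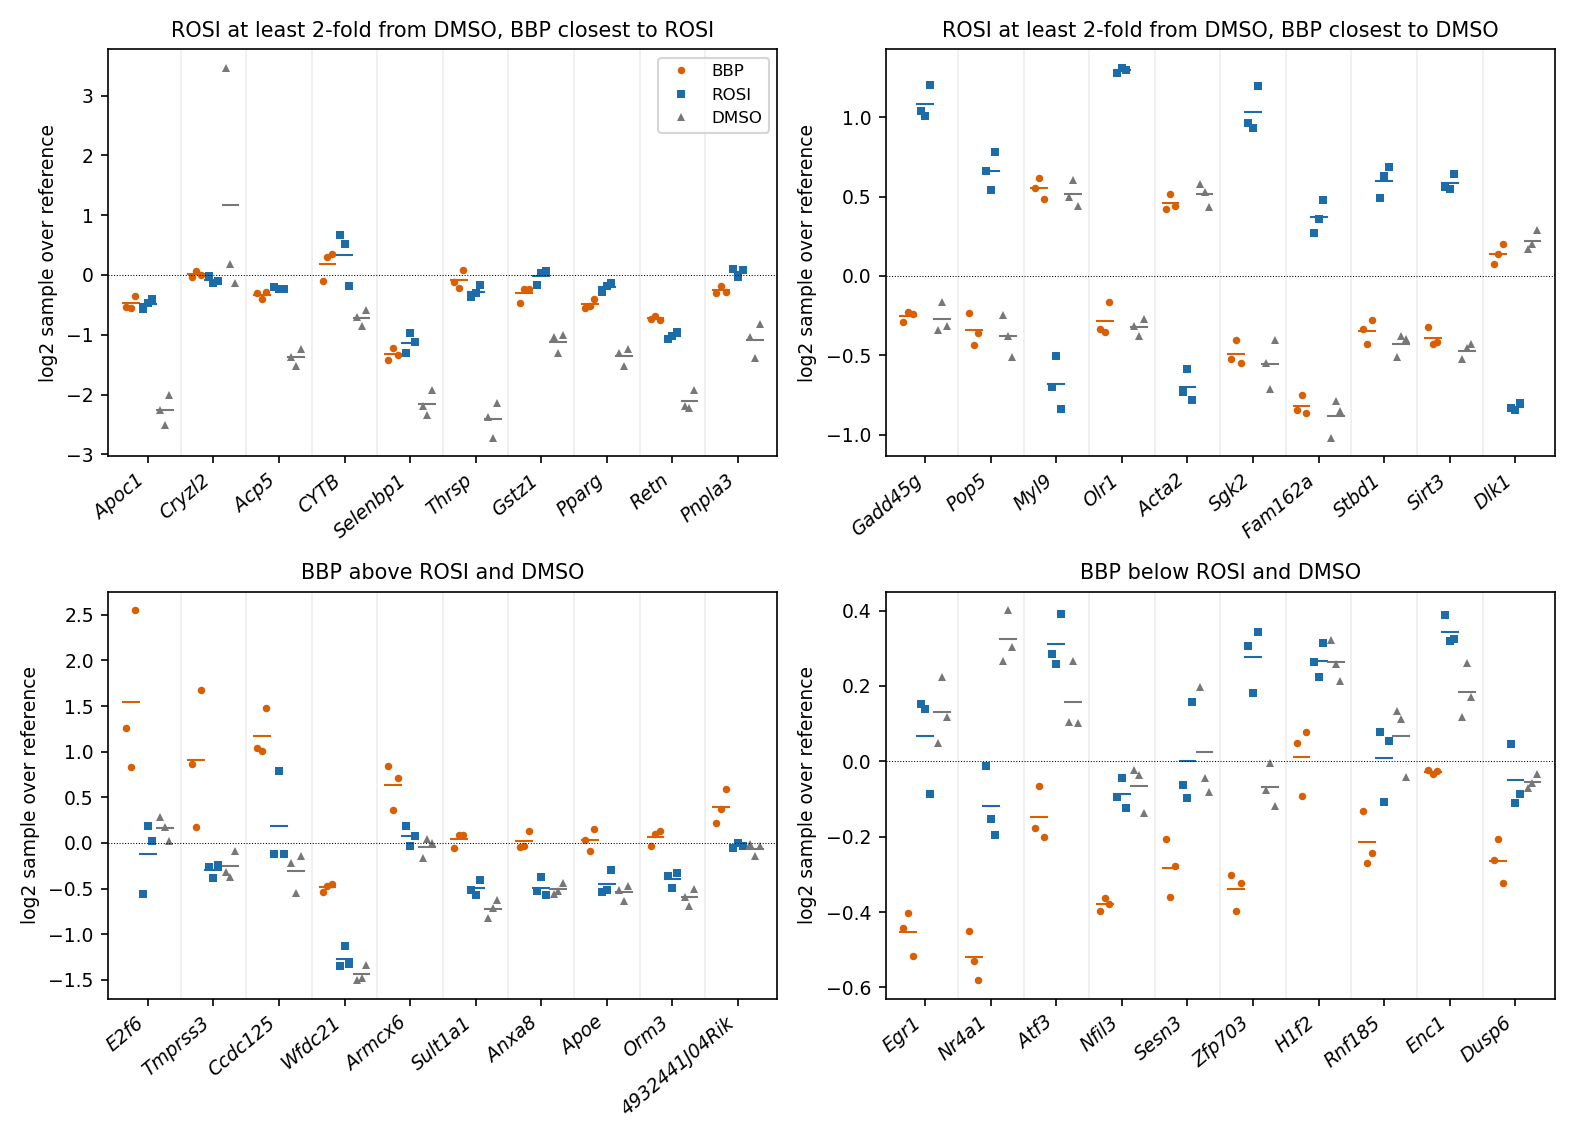
Points are the log2 ratios to the pool on each array of BBP (circles), ROSI (squares) and DMSO (triangles), with bars at group means, for 4 sets of named genes. In the upper panels BBP sits beside ROSI (left, Apoc1 at a difference of 0.00) or beside DMSO (right, Gadd45g at 0.02 from DMSO), and in the lower panels BBP lies above or below both.

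Among genes that ROSI moved at least 2-fold from DMSO, several were not called against DMSO in BBP in the deposited values. Pdk4, a pyruvate dehydrogenase kinase and a classical PPAR target, stood at -0.51, -0.59 and -0.62 in BBP, at 1.04, 1.09 and 1.27 in ROSI and at -0.40, -0.58 and -0.47 in DMSO. The BBP and DMSO arrays overlapped, and BBP was 3.27-fold lower than ROSI (adjusted p = 3.28e-15, limma). After quantile normalization Pdk4 in BBP was called lower than DMSO, at -0.38. Olr1, a scavenger receptor for oxidised lipoprotein, was at -0.34, -0.35 and -0.16 in BBP, 1.28, 1.31 and 1.30 in ROSI, and -0.32, -0.38 and -0.27 in DMSO. It too overlapped DMSO in BBP, with a difference of -1.58 to ROSI. Gadd45g, a growth arrest gene, differed from ROSI by -1.33, the kinase gene Sgk2 by -1.52, and Sirt3, a mitochondrial deacetylase, by -0.97. Olr1, Gadd45g, Sgk2 and Sirt3 were named because their BBP minus DMSO differences were among the smallest of the 389 such genes. Small differences and missing calls were thus given by that choice. In Gadd45g, Sgk2 and Sirt3 the differences from DMSO in BBP were 0.02, 0.06 and 0.08, and none of the 3 was called. After quantile normalization they were -0.10 in Gadd45g, -0.22 in Sgk2 and -0.13 in Sirt3, again without a call. The DMSO means were -0.27 for Gadd45g, -0.55 for Sgk2 and -0.47 for Sirt3.

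Elovl3, a fatty acid elongase abundant in brown fat, was at -0.89, -0.97 and -0.85 in BBP, 1.46, 1.81 and 1.82 in ROSI, and -0.85, -1.38 and -0.77 in DMSO. Egln3, a prolyl hydroxylase of the hypoxia pathway, and Angptl4, a secreted inhibitor of lipoprotein lipase, differed from ROSI by -2.23 and -1.40, with DMSO means of -1.69 for Egln3 and -1.25 for Angptl4. The differences from DMSO in BBP were 0.10 for Elovl3, 0.14 for Egln3 and 0.24 for Angptl4, with none called. After quantile normalization these 3 were called lower than DMSO, at -0.55, -0.98 and -0.58. Without DMSO replicate 3 Angptl4 was called higher than DMSO, at 0.39.

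Of 19 measured genes of brown fat and of muscle-type mitochondria, 14 were lower in BBP than in ROSI and 1 higher, with a median of -0.997. The higher one was the T-box factor gene Tbx15, with a DMSO mean of 0.25. Chchd10, a protein of the mitochondrial intermembrane space, stood at -1.21, -1.29 and -1.26 in BBP, at 1.70, 1.71 and 1.97 in ROSI and at -1.59, -1.54 and -1.37 in DMSO. BBP was 8.27-fold lower than ROSI without overlap (adjusted p = 4.77e-19, limma). It was above DMSO by 0.24 and, after quantile normalization, at -0.82 to DMSO. The call against DMSO was lost under 6 alternatives, among them leaving out any 1 BBP array. Cox7a1 and Cox8b, cytochrome c oxidase subunits of muscle and brown fat, differed by -2.52 and -2.31, with DMSO means of -2.90 and -3.27. Cidea, a lipid droplet protein of brown fat, differed by -2.14, with a DMSO mean of -1.43, and Slc36a2, an amino acid transporter of brown adipocytes, by -2.06, with a DMSO mean of -1.59. Against DMSO, 9 of the 19 were higher and 1 lower in BBP, with a median of 0.14, and after quantile normalization 2 were higher and 5 lower, with a median of -0.03. In ROSI 14 were higher than in DMSO and 1 lower.

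The respiratory chain was lower in BBP as a whole set. All 74 measured genes of oxidative phosphorylation were below ROSI, with a median of -0.70 and a range of -1.73 to -0.16. After quantile normalization 73 were. Cycs, cytochrome c, stood at -0.64, -0.61 and -0.58 in BBP, at 1.09, 1.14 and 1.12 in ROSI and at -1.37, -1.55 and -1.46 in DMSO. The groups were apart in the deposited values, and BBP was 3.32-fold lower than ROSI. The difference of Cycs from DMSO in BBP, 0.85 as deposited, was 0.12 and not called after quantile normalization. Against DMSO 50 of the 74 were higher in BBP and 74 in ROSI, and the BBP count was 20 after quantile normalization.

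In fatty acid oxidation, 28 of 36 were lower in BBP than in ROSI and 1 higher (median -0.80). Acaa2, the thiolase of beta-oxidation, was at -0.51, -0.52 and -0.45 in BBP, 1.39, 1.35 and 1.49 in ROSI, and -1.25, -1.19 and -1.15 in DMSO. Its groups did not overlap in the deposited values, and the difference from ROSI of -1.90 ± 0.05 (SE) had an adjusted p of 5.27e-18 (limma). Acaa2 in BBP was 0.70 above DMSO as deposited, and 0.15 without a call after quantile normalization. In the TCA cycle and pyruvate entry, 28 of 33 were lower and 1 higher (median -0.71), with the isocitrate dehydrogenase subunit gene Idh3a at -1.89 and the pyruvate carrier gene Mpc1 at -1.17, against DMSO means of -1.73 for Idh3a and -1.12 for Mpc1. In branched-chain amino acid breakdown, 17 of 24 were lower and 1 higher (median -0.34), led by Bckdhb at -1.41, a subunit of the branched-chain ketoacid dehydrogenase with a DMSO mean of -1.23.

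Of 25 fatty acid synthesis genes 16 were lower in BBP than in ROSI and 1 higher (median -0.23). Of 17 triglyceride synthesis genes 12 were lower and 0 higher (median -0.26), with the acyltransferase gene Agpat2 at -1.74 and Gpd1, glycerol-3-phosphate dehydrogenase, at -1.77, against DMSO means of -1.88 for Agpat2 and -3.11 for Gpd1. In cholesterol synthesis 16 of 20 were lower and 0 higher (median -0.40), among them Pmvk, phosphomevalonate kinase, at -1.20 with a DMSO mean of -1.12. In BBP 18 of these 20 were above DMSO, and Idi1, an isomerase of the same pathway, was at -0.02, -0.01 and -0.02 in BBP, 0.74, 0.57 and 0.74 in ROSI, and -0.64, -0.69 and -0.91 in DMSO. Glucose handling had 21 of 33 lower and 4 higher (median -0.50).

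**Figure D4:**
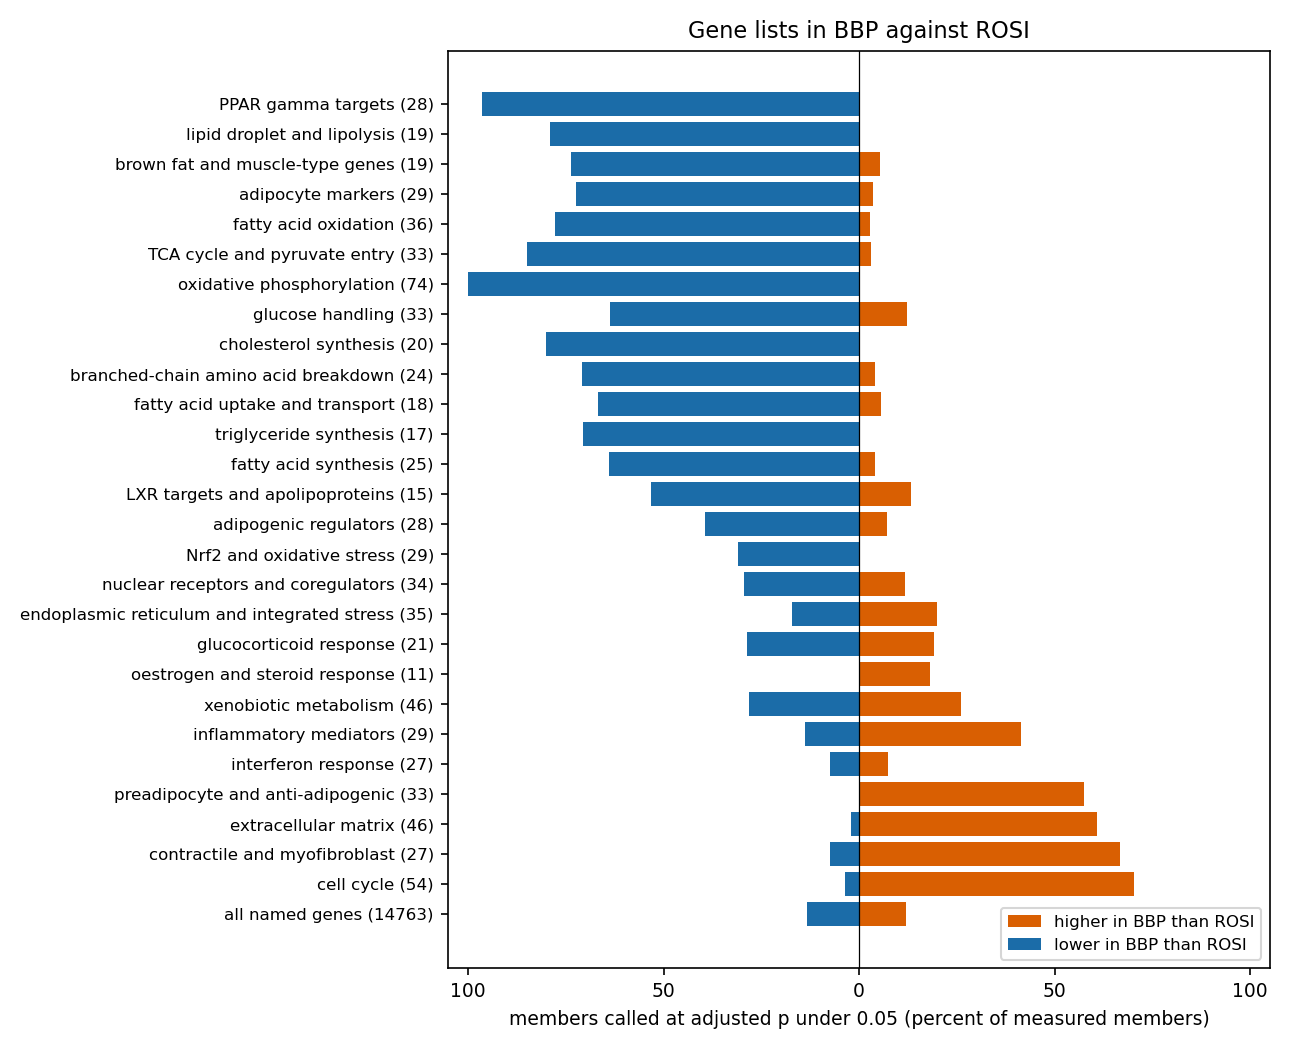
Bars give the percent of measured members of each gene list called higher (right, orange) or lower (left, blue) in BBP than in ROSI at an adjusted p under 0.05, with the number measured in parentheses. All 74 oxidative phosphorylation genes and 27 of 28 PPAR gamma targets are on the left, and cell cycle, contractile, matrix and preadipocyte lists lie to the right, beside 13.3% lower and 12% higher among all genes.

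Acta2, smooth muscle actin, stood at 0.42, 0.52 and 0.44 in BBP, at -0.73, -0.58 and -0.78 in ROSI and at 0.58, 0.53 and 0.44 in DMSO. BBP overlapped DMSO and was 2.23-fold above ROSI (adjusted p = 7.62e-11, limma). Myl9, a regulatory light chain of smooth muscle myosin, was at 0.56, 0.62 and 0.48 in BBP, -0.70, -0.51 and -0.84 in ROSI, and 0.50, 0.61 and 0.44 in DMSO. It was 2.35-fold above ROSI, again with the BBP and DMSO arrays interleaved. Of 27 contractile and myofibroblast genes, 18 were higher in BBP than in ROSI and 2 lower (median 0.33). The 2 lower were Lims2, an adaptor of integrin adhesions, at -0.85 and Des, the muscle intermediate filament desmin, at -0.18, with DMSO means of -0.42 for Lims2 and -0.22 for Des. The call of Des was lost without ROSI replicate 2. Against DMSO 0 of the 27 were higher and 2 lower in BBP, and 2 were higher and 18 lower in ROSI.

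Promoter windows of the contractile genes were searched because 18 of the 27 were called higher. The windows run from 250 bases before to 50 after the transcription start (RefSeq, GRCm38.p6). The 5 motifs tried were picked after the values were seen. The CArG box, the site of serum response factor, was in the windows of 4 of the 23 contractile genes that had one (17.39%): Myl9, Cnn2, Myl6 and Vcl. Among all 27025 genes with a window 488 had it (1.806%), in 535 of 32851 windows (1.629%). The box was searched only as CCWWWWWWGG, with W for A or T, so a box with any other letter was not found. This pattern matches both strands alike, but a given box need not read the same on both. Of the 4 genes, Myl6 was not called between BBP and ROSI (0.11). Acta2, called higher at 1.16, had a window without a match to the searched pattern, as had other called genes of the list. A missing match does not show that a gene lacks a site of serum response factor. Whether the box went with the calls was not tested. Outside the contractile list, the box was in the windows of 4 other named genes: Stbd1 at -0.95 between BBP and ROSI, Selenbp1 at -0.19 and not called, Acta1, skeletal muscle actin, at 0.59, and Ckap2l at 0.95, with DMSO means of -0.43 for Stbd1, -2.15 for Selenbp1, 0.47 for Acta1 and -0.02 for Ckap2l. The other motifs, on both strands, were AGGTCANAGGTCA (13 windows in all), its forms AGGNCANAGGNCA (125, which include the 13) and AGGTCAAAGGTCA (5 of the 13), which spell repeats of the kind PPAR and RXR bind, and TGACGTCA (588), the cyclic AMP element. The first 3 were in 0 of the 21 PPAR gamma targets that had a window, and the last was in 0 of them and in 1 contractile gene, Myl6. Of the 126 genes named by the rule that had a window, 6 held the CArG box, 3 the cyclic AMP element and 0 the first 3 motifs. The windows of Myl9 at chr2:156775214-156775513 and of Cnn2, which encodes calponin 2, at chr10:79988350-79988649, both on the plus strand, are shown. Of the 4 contractile genes with the box, they were the called ones with the larger differences, 1.23 and 0.72. The DMSO means were 0.52 for Myl9, 0.44 for Cnn2, -0.06 for Myl6 and 0.15 for Vcl. Capitals mark the CArG box, 161 to 152 bases before the start in Myl9 and 56 to 47 in Cnn2. A match in the letters is a description and not a measured site.
Myl9: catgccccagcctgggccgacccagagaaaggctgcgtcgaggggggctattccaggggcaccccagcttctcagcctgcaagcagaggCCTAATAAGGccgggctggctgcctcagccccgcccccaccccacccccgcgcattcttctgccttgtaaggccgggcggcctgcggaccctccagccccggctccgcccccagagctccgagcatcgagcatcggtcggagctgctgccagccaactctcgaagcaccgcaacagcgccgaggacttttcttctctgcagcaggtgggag
Cnn2: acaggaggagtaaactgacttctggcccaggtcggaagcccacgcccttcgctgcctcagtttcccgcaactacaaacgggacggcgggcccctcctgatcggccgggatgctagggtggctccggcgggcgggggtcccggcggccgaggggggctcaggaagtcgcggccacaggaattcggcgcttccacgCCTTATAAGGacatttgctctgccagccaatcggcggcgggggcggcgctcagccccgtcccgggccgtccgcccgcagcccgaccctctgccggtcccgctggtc

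Of 46 measured matrix genes, 28 were higher in BBP than in ROSI and 1 lower (median 0.31). The lower one was Col6a3, a chain of collagen VI, with a DMSO mean of 0.00. Mgp, matrix Gla protein, an inhibitor of calcification, stood at 0.69, 0.91 and 0.76 in BBP, at -0.83, -0.12 and -0.71 in ROSI and at 0.53, 0.61 and 0.53 in DMSO. BBP exceeded ROSI by 1.34 without overlap (SE 0.14), and its difference of 0.23 from DMSO was not called. Col1a1, the alpha 1 chain of collagen I, was at 0.17, -0.13 and 0.01 in BBP, -0.18, -0.53 and -0.38 in ROSI, and 0.29, 0.29 and 0.22 in DMSO. It was above ROSI by 0.38 with no overlap (SE 0.10, adjusted p = 0.00398, limma). The elastic fibre genes Eln and Mfap5 exceeded ROSI by 0.56 and 0.72, with DMSO means of 0.51 for Eln and 0.32 for Mfap5. Against DMSO 1 of the 46 was higher and 5 lower in BBP, and 1 was higher and 31 lower in ROSI.

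Of 33 preadipocyte and anti-adipogenic genes, 19 were higher in BBP than in ROSI and 0 lower (median 0.25). Dlk1, the preadipocyte factor that restrains adipogenesis, stood at 0.07, 0.14 and 0.20 in BBP, at -0.83, -0.85 and -0.80 in ROSI and at 0.17, 0.20 and 0.29 in DMSO. BBP overlapped DMSO and was 1.95-fold above ROSI. Sfrp2, a secreted modulator of Wnt signals, differed by 1.00, with a DMSO mean of 0.59, and the growth factor gene Tgfb3 by 0.93, with a DMSO mean of 0.62. Against DMSO 9 of the 33 were lower in BBP and 26 in ROSI, with 0 higher in either.

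Cell cycle genes were higher in BBP than in ROSI in 38 of 54 and lower in 2 (median 0.33). Ccnd1, cyclin D1, was at 0.21, 0.27 and 0.24 in BBP, -0.51, -0.36 and -0.46 in ROSI, and 0.63, 0.55 and 0.55 in DMSO, with the groups apart. Stmn1, a regulator of microtubules, exceeded ROSI by 0.55, and Cdc20, an activator of the anaphase-promoting complex, by 0.60, with DMSO means of 0.16 for Stmn1 and -0.02 for Cdc20. Against DMSO 2 of the 54 were higher and 3 lower in BBP, and 2 were higher and 39 lower in ROSI.

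Among 29 inflammatory mediators 12 were higher in BBP than in ROSI and 4 lower (median 0.15). Ptx3, a soluble pattern receptor, exceeded ROSI by 0.87, and Cx3cl1, the chemokine fractalkine, by 0.83, with DMSO means of 0.66 and 0.38. Ccl11, eotaxin, differed by -0.81, at 0.17, 0.09 and -0.02 in BBP, 0.82, 0.98 and 0.89 in ROSI, and -0.19, -0.13 and -0.19 in DMSO.

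**Figure D5:**
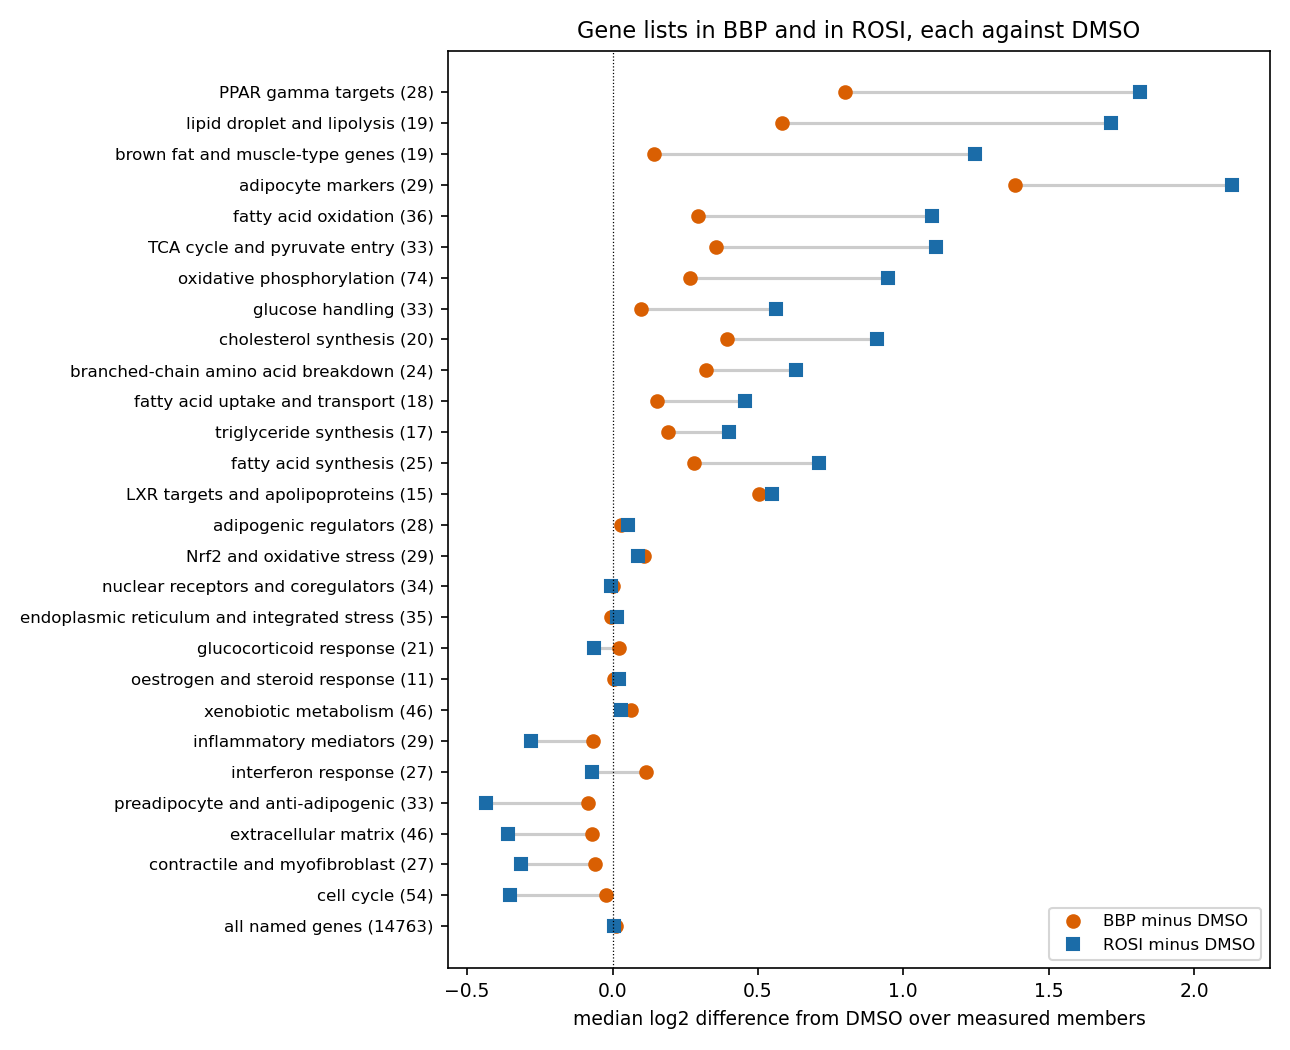
For each gene list, with the number of measured members in parentheses, the orange circle is the median log2 difference BBP minus DMSO and the blue square the median ROSI minus DMSO; both use the same 3 DMSO arrays. PPAR gamma targets had medians of 0.80 in BBP (0.188 after quantile normalization) and 1.82 in ROSI (1.26), and cell cycle genes -0.02 in BBP and -0.35 in ROSI.

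In some of the genes named here BBP lay outside both other groups. The naming rule limited how many such genes were kept, and their number among all genes was not counted. Nr4a1, an orphan nuclear receptor induced quickly by growth signals, stood at -0.45, -0.53 and -0.58 in BBP, at -0.01, -0.15 and -0.19 in ROSI and at 0.27, 0.40 and 0.30 in DMSO. BBP was the lowest group without overlap, by 0.40 against ROSI (adjusted p = 5.23e-06, limma) and by 0.84 against DMSO. Egr1, a zinc finger factor of the same rapid kind, was at -0.44, -0.40 and -0.52 in BBP, 0.15, 0.14 and -0.09 in ROSI, and 0.05, 0.22 and 0.12 in DMSO. Its difference was -0.52 to ROSI (adjusted p = 0.000317) and -0.58 to DMSO (adjusted p = 0.000282). Atf3, a stress-induced factor, was below ROSI by 0.46 and below DMSO by 0.30, and Nfil3, a leucine zipper repressor, by 0.29 and 0.31. Zfp703, a transcriptional repressor, was below ROSI by 0.62 and below DMSO by 0.27. The DMSO means were 0.16 for Atf3, -0.07 for Nfil3 and -0.07 for Zfp703. Nr4a1, Egr1, Atf3, Nfil3 and Zfp703 kept both calls under the 15 alternative settings.

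Among the named genes above both groups were Sult1a1, a phenol sulfotransferase, Apoe, apolipoprotein E, Anxa8, an annexin, and Orm3, an orosomucoid. Sult1a1 stood at -0.05, 0.09 and 0.09 in BBP, at -0.51, -0.57 and -0.40 in ROSI and at -0.82, -0.71 and -0.63 in DMSO. BBP was the highest group, 0.54 above ROSI (SE 0.07, adjusted p = 2.13e-06, limma) and 0.76 above DMSO. Apoe exceeded ROSI by 0.48 and DMSO by 0.57, Anxa8 by 0.51 and 0.53, and Orm3 by 0.46 and 0.66, with DMSO means of -0.54 for Apoe, -0.51 for Anxa8 and -0.59 for Orm3. Orm3 belongs to a family of near-identical genes, so its probe may read its relatives too. Wfdc21, with a DMSO mean of -1.44, exceeded ROSI by 0.78, or by 1.20 after quantile normalization. It exceeded DMSO by 0.95, but by 0.28 and no longer as a call after quantile normalization.

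E2f6, a repressor of the E2F family, headed the upward side with 1.25, 0.83 and 2.55 in BBP, -0.56, 0.19 and 0.02 in ROSI, and 0.29, 0.18 and 0.02 in DMSO. The BBP arrays did not overlap the others, but they spread over more than the difference itself, 1.66 ± 0.34 (SE, adjusted p = 0.000512, limma), and the call against DMSO was lost without BBP replicate 3 and with the 3 groups fitted alone. Tmprss3, a membrane protease, was at 0.86, 0.18 and 1.67 in BBP, -0.27, -0.38 and -0.24 in ROSI, and -0.32, -0.37 and -0.09 in DMSO, also with a wide spread. Csrnp2, Vmn1r124, Cdkl1 and Ckap2l, all among the 15 furthest above ROSI and each read by 1 probe, lost that call when 1 array was left out. Their DMSO means were 0.54 for Csrnp2, 0.18 for Vmn1r124, 0.33 for Cdkl1 and -0.02 for Ckap2l. Vmn1r124 is of the large family of vomeronasal receptor genes, whose members resemble each other in sequence. Cdkl1 differed from ROSI by 0.96, and by 0.54 without BBP replicate 3.

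Ogn and Cyp2f2 lay on opposite sides of DMSO in BBP and ROSI. Ogn, the matrix proteoglycan osteoglycin, stood at 0.42, 0.56 and 0.50 in BBP, at -0.48, -0.48 and -0.63 in ROSI and at 0.19, 0.13 and 0.10 in DMSO. BBP was above DMSO by 0.35 (adjusted p = 0.0100, limma) and ROSI below it by 0.67, and without BBP replicate 2 the call of BBP against DMSO was lost. Cyp2f2, a cytochrome P450 that oxidises xenobiotics, was at -0.15, -0.04 and 0.00 in BBP, -1.06, -1.06 and -1.14 in ROSI, and -0.47, -0.54 and -0.36 in DMSO. BBP was above DMSO by 0.39 (adjusted p = 0.000116, limma) and ROSI below by 0.63, and the BBP value was 0.25 and not called after quantile normalization.

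The xenobiotic metabolism list, which holds Cyp2f2 and Sult1a1, was divided, with 12 of 46 higher in BBP than in ROSI and 13 lower. Ephx2, soluble epoxide hydrolase, differed by -2.11 (DMSO mean -1.93), and the glutathione transferase gene Mgst1 by -1.14 (DMSO mean -0.66), while Gstm1 exceeded ROSI by 0.40 and Cyp1b1, a P450 of the aryl hydrocarbon receptor pathway, by 0.48, with DMSO means of 0.03 for Gstm1 and 0.02 for Cyp1b1. On the list of Nrf2 and oxidative stress genes 9 of 29 were lower and 0 higher, led by Sod2, mitochondrial superoxide dismutase, at -1.04 with a DMSO mean of -0.92. Of 35 stress genes of the endoplasmic reticulum 7 were higher and 6 lower, and of 27 interferon response genes 2 were higher and 2 lower. Each of the 2 higher interferon response genes lost the call under 3 alternatives. In 1 of them the BBP and ROSI arrays overlapped, and in the other the 2 probes differed in sign. The exception in size there was Ifi27l2a, at -0.57, -0.37 and -0.32 in BBP, 1.53, 1.45 and 1.69 in ROSI, and -2.91, -3.04 and -2.77 in DMSO. Of 11 oestrogen and steroid response genes 2 were higher and 0 lower. Of the 2, Igfbp4, with a DMSO mean of 0.11, lost the call under 3 alternatives. Among all genes 12% were higher and 13.3% lower, and whether the stress, interferon and oestrogen counts differed from these shares was not tested.

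Of 15 LXR targets and apolipoproteins 2 were higher in BBP than in ROSI and 8 lower (median -0.18), with Abcg1, a sterol exporter, at -0.89 and a DMSO mean of -1.03. Fatty acid uptake and transport had 12 of 18 lower and 1 higher, lipid droplet and lipolysis 15 of 19 lower and 0 higher. Glucocorticoid response genes had 6 of 21 lower and 4 higher, and nuclear receptors and coregulators 10 of 34 lower and 4 higher. The shares among all genes were 13.3% lower and 12% higher.

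Markers of other cell types were counted in the same way. Of 9 fibroblast markers, some of which are also on the matrix and preadipocyte lists, 5 were higher in BBP than in ROSI and 0 lower (median 0.23), with median levels of -0.10 in BBP, -0.30 in ROSI and 0.13 in DMSO. Macrophage markers had 2 of 8 higher and 1 lower, skeletal muscle 1 of 6 each way, chondrocyte 1 of 3 higher, osteoblast 1 of 5 and epithelial 1 of 4 lower, and endothelial 0 of 3 called by limma, of which 1 had an unadjusted p under 0.05. Among all genes 12% were higher and 13.3% lower. The 2 higher macrophage markers, Cd14 and Aif1, lost the call under 3 and 4 alternatives, with DMSO means of 0.43 and 0.39. Correlations over all entries between replicate arrays were 0.613 to 0.692 in BBP, 0.648 to 0.739 in ROSI and 0.835 to 0.850 in DMSO.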

How the data were processed

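Expression was measured in 30 two-colour Agilent arrays of 3T3-L1 cells, 10 groups of 3, grouped by title. The authors' deposited values are log ratios of reference (Cy5) over sample (Cy3), processed with limma per the submitters' processing notes; the log base is not given in the sources used here, and they were read as log2. Signs were turned, and differences between turned values matched the log2 fold changes that the authors' own tables for BBP and ROSI hold (r = -1 before turning, over 23460 probes). Those deposited tables also carry the authors' adjusted p-values, with the method of adjustment not given, per the file headers. Background correction, intensities and scanner settings are not given, so no filter on dim probes was possible and the number of arrays limits the precision.

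After 26 control probes were left out, 18966 probes with 1 gene symbol in the platform annotation (0 had several, 4468 none) were averaged into 14763 genes, 3480 of them from more than 1 probe. With the unnamed probes this made 19231 entries. limma 3.58.1 in R 4.3.3 fitted a mean per group over all 30 arrays (20 residual and 3.56 prior degrees of freedom), contrasts and eBayes, two-sided, with Benjamini-Hochberg adjustment over all entries and calls at 0.05. An exact permutation test of 3 against 3 arrays cannot go below 0.1. The steps were tested on simulated data.

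Named genes were the 15 with the highest and 15 with the lowest BBP minus ROSI difference among called genes without overlap; up to 10 above and 10 below both other groups; 10 each, of those ROSI moved at least 2-fold from DMSO, closest to ROSI or to DMSO; the key genes fixed by hand; and, from each gene list, up to 4 members of smallest p. Others named in the text are list members chosen after their values were seen. The members, lists and rules were chosen with earlier results of these data known. Array medians ran between -0.00315 and 0.01379. Same-numbered BBP and ROSI arrays did not deviate together (r = 0.0476, 0.00796 and -0.0075), so replicate numbers were not used as pairs. Alternatives were median centring, quantile normalization, robust eBayes, array weights, the replicate block, the 3 groups alone, a fold limit and each array left out. Promoters came from RefSeq, GRCm38.p6.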

Additional observations from a re-analysis of the deposited data

How the results depend on the processing

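No called difference between BBP and ROSI in a named gene changed direction under the 15 alternatives, and 5 uncalled ones did (Apoc1, CYTB, Eng, Bglap and Ibsp). Of the 174 named genes 150 were called, 134 kept call and direction throughout, 16 lost the call under at least 1 alternative, and 5 uncalled genes gained one. Requiring at least 2-fold left 9 genes higher and 128 lower in BBP than in ROSI, 57 higher and 1 lower in BBP than in DMSO, and 372 higher and 17 lower in ROSI than in DMSO. With each array left out, counts ran from 1360 to 1800 genes higher and 1727 to 1984 lower in BBP than in ROSI, from 681 to 1137 higher and 133 to 422 lower in BBP than in DMSO, and from 2370 to 2644 higher and 1843 to 2279 lower in ROSI than in DMSO. The counts of BBP against DMSO turned on single arrays: without DMSO replicate 2 there were 681 higher and 133 lower, without BBP replicate 2 there were 210 lower, and without BBP replicate 3 there were 191 lower. With the 3 groups fitted alone 199 genes were lower in BBP than in DMSO. In that fit 3148 of the 3730 calls between BBP and ROSI remained, and 888 of the 1460 calls of BBP against DMSO.

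Quantile normalization left 511 genes higher in BBP than in DMSO, and 808 of the 1460 calls against DMSO remained, while 3612 of the 3730 calls between BBP and ROSI did. It turned the BBP minus DMSO difference of 30 named genes, of which 12 were called in neither setting. The other 18 went to -0.62 in Fabp3, -0.82 in Chchd10, -0.28 in Cmbl, -0.55 in Elovl3, -0.37 in Cox7a1, -0.98 in Egln3, -0.23 in Cidea, -0.50 in Mmd, -0.0044 in Slc36a2, -0.58 in Selenbp1, -0.48 in Fam162a, -0.58 in Angptl4, -0.024 in Agpat3, -0.18 in Hadhb, -0.21 in Idh3a, -0.035 in Bckdhb, -0.52 in Hsd11b1 and -0.049 in Cbr3. Among those not called after quantile normalization were Cmbl, Cidea, Slc36a2, Agpat3, Hadhb, Idh3a, Bckdhb and Cbr3. The alternatives for differences from DMSO in named genes were chosen after the data were seen, and the cause was not tested. Median centring turned 1, uncalled in both settings.

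Replicate numbers did not pair the samples, and with them as a replicate block 1781 genes were higher and 1993 lower in BBP than in ROSI, 1150 higher and 397 lower in BBP than in DMSO, and 2675 higher and 2318 lower in ROSI than in DMSO.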
